A study of Homo sapiens with 2 samples.

Results

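The p53 pathway and the DNA damage response were examined through 38 named genes in PLC-8024 cells, an established human hepatocellular carcinoma (HCC) cell line. The 38 genes were taken from a list of gene symbols with no cut on measured values, and all 38 were found among the 58174 genes of the expression tables. They comprised 27 genes of the p53 pathway, which are regulators of p53 or transcriptional targets of it, and 11 damage kinases and repair proteins. RNA sequencing of polyadenylated RNA was performed on PLC-8024-CTR cells, the control, and on PLC-8024-GDF1 cells, which overexpressed GDF1, a secreted ligand of the TGF-β superfamily. GDF1 was introduced by lentiviral transduction followed by puromycin selection of stable cells, and the control cells of the same line received a control vector, so that each library came from 1 population of cells. There was 1 library per condition. None of the differences given here has a replicate check, no test was made, and every value describes these 2 libraries.

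p53 is a transcription factor that is held at a low level by the ubiquitin ligase MDM2 and its partner MDM4. DNA damage activates the kinases ATM and ATR, which act through CHEK2 and CHEK1 and, with them, phosphorylate p53 and release it from MDM2. Stabilised p53 then switches on genes for cell cycle arrest, apoptosis, antioxidant defence and repair, and it switches on MDM2 itself, which closes a feedback loop.

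p53 binds DNA at a pair of decamers, the half-sites, which may be separated by a short spacer. RefSeq promoters on GRCh38.p14, from 250 bases before to 50 bases after the gene start, were matched to 32 of the 38 members and searched for this pair on both strands. Up to 2 mismatches were allowed in all, with a spacer of up to 13 bases and with the central C and G of each half-site kept. The matches are printed because they are the stretches of promoter that resemble the binding site of the factor after which the pathway is named. Capitals mark the bases that match the half-site consensus, and lower case marks a mismatch or a spacer base. Each sequence is written 5′ to 3′ on the strand of its gene.
DDB2, chr11:47214979-47214999, plus strand: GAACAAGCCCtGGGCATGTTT
AEN, chr15:88621306-88621325, plus strand: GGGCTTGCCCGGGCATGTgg
FAS, chr10:88991309-88991328, plus strand: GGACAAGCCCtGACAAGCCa
MDM2, chr12:68808923-68808942, plus strand: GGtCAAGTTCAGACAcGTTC
FDXR, chr17:74872996-74873025, minus strand: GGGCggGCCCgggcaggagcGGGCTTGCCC
DDB2 was the member whose pair had no mismatch, with a spacer of 1 base. AEN, FAS, MDM2 and FDXR each had 2 mismatches, and in FDXR the half-sites lay 10 bases apart. Such a pair was held by 13.04% of the 46 member promoters and by 2.93% of all 35116 promoters. A single exact half-site was held by 13.04% of the member promoters and by 6.63% of all promoters. It was the only match in PLK2 (AGACTTGCTT, chr5:58460209-58460218, minus strand) and in SESN1 (GGACAAGTCT, chr6:109009028-109009037, minus strand). All of these are matches of letters and not measured binding sites. Stretches outside these promoters were not searched, nor were the members without a matched promoter, GADD45A among them. The E2F motifs TTTCCCGC, TTTGGCGC and TTTCGCGC, which are bound by regulators of the cell cycle, were searched on both strands in the same promoters. They were found in 10.9% of the member promoters, in AEN, MDM2, XPC and XRCC6, and in 2.74% of all promoters.

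Expression was given as TPM, a transcript level scaled by length and by the library total, so that levels of different genes can be set side by side. The table of the control summed to 999990 TPM and that of PLC-8024-GDF1 to 999995 TPM, and 14138 and 13658 genes reached 1 TPM. TPM keeps no depth, so the depth of the libraries is unknown from these tables and no interval is given. The label was checked at GDF1, which stood at 2.096 TPM in the control and at 4.64 TPM in PLC-8024-GDF1. CERS1, which shares a transcript with GDF1, stood at 13.3 and at 9612 TPM. All 13 hepatocyte markers reached 1 TPM in 1 library or both. Their summed level was 12632 TPM in the control and 8534 TPM in PLC-8024-GDF1. Of them, 7 were lower by at least 2-fold before any rescaling, as were 9.61% of all genes with at least 1 TPM. The 7 included TTR, which reached 1 TPM in the control alone, and AFP, which the paper counts as a liver progenitor marker. FGA (468 and 911 TPM) and TF (1318 and 1434 TPM) were higher in PLC-8024-GDF1. Of 8 markers of leucocytes, endothelium and stroma, CD68 (33.1 and 13.2 TPM) and PECAM1 (23.2 and 22.2 TPM) reached 1 TPM, while PTPRC, VWF, COL1A2 and DCN were at 0.0001 TPM, the lowest value listed. In bulk RNA, fewer cells of a kind and less RNA per cell cannot be told apart.

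The difference between the conditions was computed for each gene as log2((TPM + 1)/(TPM + 1)), PLC-8024-GDF1 over PLC-8024-CTR, over the 14929 genes that reached 1 TPM in 1 library or both. The pseudocount of 1 TPM understates the difference of low genes. A gene was said to have risen or fallen where it differed by at least 2-fold, a log2 change of 1 in size. Of the 38 members, 33 reached 1 TPM in either library and 5 (FAS, GADD45G, PLK2, SESN1 and ZMAT3) did not. None of the 33 rose, while 4.82% of all genes did. GADD45A and GDF15 fell, which was 6.06% of the 33, while 9.61% of all genes fell. The other 31 members lay within 2-fold.

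Most members lay on the lower side of 0. A log2 change below 0 was measured for 28 of the 33 members (84.8%), and for 63.3% of all genes. Of the 33, PPM1D and TP53INP1 reached 1 TPM in the control alone, and BRCA2 in PLC-8024-GDF1 alone. Each of these was thus counted through the library where it was higher. Lower by at least 1.5-fold were 12 members (36.4%), and 25.3% of all genes. CHEK2 alone was higher by that margin, which 11.5% of all genes passed. The median log2 change of the members was -0.35, within a range from -1.56 to 0.69, and that of all genes was -0.20. Since the median of all genes was itself below 0, the TPM of PLC-8024-GDF1 were also rescaled by 1.15. This moved log2 changes up by at most about 0.21, and by less in genes of low TPM because of the pseudocount. After this rescaling, 20 of the 33 members (60.6%) and 51.6% of all genes were below 0, the median of the members was -0.15 and that of all genes was -0.02.

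**Figure D1:**
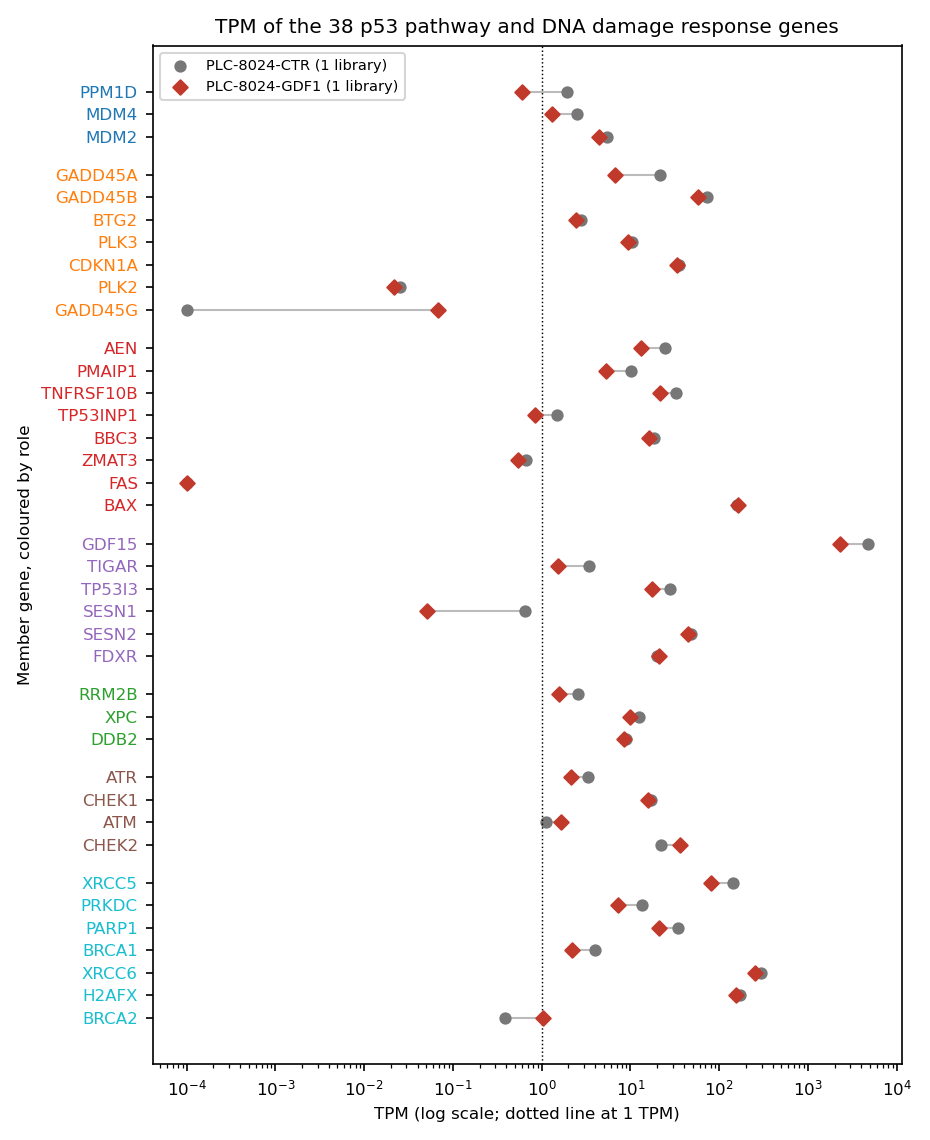
TPM of all 38 members in PLC-8024-CTR (grey circles) and PLC-8024-GDF1 (red diamonds), 1 library each, on a logarithmic axis, with gene names coloured by role and the dotted line at 1 TPM. GDF15 stood above all other members at 4696 and 2294 TPM, and FAS was listed at 0.0001 TPM in both libraries, where its 2 symbols coincide.

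The levels of the members spanned a wide range, as the plot of TPM by gene shows. GDF15 was the most abundant, at 4696 TPM in the control, followed by XRCC6 at 296 TPM, H2AFX at 170 TPM and BAX at 159 TPM. The apical kinases and the p53 inhibitors were low, with ATM at 1.13 TPM, PPM1D at 1.95 TPM and MDM4 at 2.49 TPM. Summed over all 38 members, the level was 5924 TPM in the control and 3309 TPM in PLC-8024-GDF1, and GDF15 made up most of both sums.

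The negative regulators of p53 were all lower in PLC-8024-GDF1, though none by 2-fold and MDM2 not with a trend in GC content removed. MDM2, the ubiquitin ligase that marks p53 for degradation, stood at 5.45 and 4.41 TPM (log2 change -0.25). MDM4, which masks the transactivation domain of p53, stood at 2.49 and 1.29 TPM (-0.61). The lowest of the group was PPM1D, which encodes the phosphatase WIP1 that reverses damage signalling, at 1.95 and 0.593 TPM (-0.89). PPM1D passed 2-fold with a pseudocount of 0.1 TPM, at -1.57. With the GC trend removed, the log2 change of MDM2 was 0.16.

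Among the genes of cell cycle arrest, GADD45A fell and CDKN1A did not differ by more than a small margin. GADD45A encodes a stress sensor that restrains cyclin B1 with CDK1 and activates p38 and JNK kinases. Its gene lies on the plus strand of chromosome 1, at chr1:68150884-68154017 in GRCh37. It stood at 21.7 TPM in PLC-8024-CTR and at 6.71 TPM in PLC-8024-GDF1, which is 3.23 times higher in the control, and its log2 change was -1.56. A log2 change as low as this or lower was measured for 2.92% of all genes, and the change stayed past 2-fold under every alternative processing that was run, at -1.37 after rescaling. CDKN1A, which encodes the CDK inhibitor p21 and is the canonical arrest target of p53, stood at 35.0 and 33.3 TPM, a log2 change of -0.07. Its sign turned to 0.13 after rescaling.

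The paralogues of GADD45A took other values. GADD45B, which is also induced by NF-κB and TGF-β signals, stood at 73.7 and 57.6 TPM (log2 change -0.35). GADD45G was under 1 TPM, listed at 0.0001 TPM in the control and at 0.0682 TPM in PLC-8024-GDF1. Of the 3 paralogues, GADD45A was the one past 2-fold. The remaining arrest genes differed little: BTG2, an antiproliferative co-regulator of mRNA decay, stood at 2.78 and 2.44 TPM (-0.14), and PLK3, a stress-responsive polo-like kinase, at 10.4 and 9.47 TPM (-0.12). Both turned slightly positive after rescaling, at 0.01 and 0.07. PLK2, a kinase of the same family, was under 1 TPM in both libraries, at 0.0250 and 0.0219 TPM.

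The apoptosis genes were split between some that were nearly level and some that were lower by close to 2-fold. BAX, which permeabilises the outer mitochondrial membrane, stood at 159 and 161 TPM, a log2 change of 0.02. BBC3, which encodes the BH3-only protein PUMA, stood at 18.3 and 16.0 TPM (-0.18), and its sign turned to 0.01 after rescaling. PMAIP1, which encodes NOXA, another BH3-only protein that neutralises MCL1, stood at 10.1 and 5.25 TPM (-0.82). PMAIP1 was thus lower by at least 1.5-fold and BBC3 was not, but with the GC trend removed neither was, at -0.39 and -0.53.

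AEN, an exonuclease that digests DNA in apoptosis, stood at 24.5 and 13.1 TPM (-0.85). It had the lowest log2 change of the apoptosis genes with a pseudocount of 1 TPM, while PMAIP1 was lower with 0.1 TPM (-0.93 and -0.89), and AEN stayed lower by at least 1.5-fold both after rescaling and with the GC trend removed. TNFRSF10B, the death receptor DR5, which binds the ligand TRAIL, stood at 32.5 and 21.7 TPM (-0.56). TP53INP1, an adaptor that promotes phosphorylation of p53 and autophagy, stood at 1.49 and 0.845 TPM (-0.43), which was near 0, at -0.01, with the GC trend removed. FAS, the death receptor for FASLG, was listed at 0.0001 TPM in both libraries, and ZMAT3, an RNA-binding splicing regulator, stood at 0.660 and 0.548 TPM. Neither of these last 2 genes can be compared between the conditions at such levels. Of the 5 members with a match to the p53 pair printed above, FAS was not measurable, and the log2 changes of AEN, MDM2, DDB2 and FDXR were -0.85, -0.25, -0.08 and 0.07. Members without a printed match may hold sites outside the stretch searched.

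The metabolic and secreted targets held the second gene that fell. GDF15 encodes a secreted stress cytokine, a distant member of the TGF-β superfamily, whose gene lies on the plus strand at chr19:18485541-18499986 in GRCh37. It stood at 4696 TPM in PLC-8024-CTR and at 2294 TPM in PLC-8024-GDF1, 2.05 times higher in the control, with a log2 change of -1.03. The change lay close to the 2-fold limit and was -0.83 after rescaling, short of 2-fold. GDF15 is GC-rich, at 64.1% of its longest transcript, and genes of such GC content tended to be higher in PLC-8024-GDF1. With the GC trend removed its log2 change was -1.17.

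TIGAR, a phosphatase that diverts glucose from glycolysis to the pentose phosphate pathway, stood at 3.41 and 1.53 TPM (-0.80), and TP53I3, a quinone oxidoreductase linked to oxidative stress, at 28.1 and 17.5 TPM (-0.65). Both were lower by at least 1.5-fold. SESN2, a leucine-binding inhibitor of mTORC1, stood at 48.1 and 43.98 TPM (-0.13, and 0.08 after rescaling). FDXR, the mitochondrial ferredoxin reductase, stood at 20.01 and 21.0 TPM (0.07). SESN1, the sestrin most closely tied to p53, was under 1 TPM in both, at 0.650 and 0.0513 TPM, and was not compared.

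The p53 targets that serve repair were nearly level or moderately lower. RRM2B, the p53-inducible small subunit of ribonucleotide reductase, stood at 2.55 and 1.58 TPM (-0.46, and -0.03 with the GC trend removed). XPC, which recognises helix-distorting lesions in nucleotide excision repair, stood at 12.5 and 9.97 TPM (-0.30). DDB2, which recognises ultraviolet photoproducts and whose promoter matched the p53 pair without mismatch, stood at 9.01 and 8.45 TPM (-0.08). The sign of DDB2 turned after rescaling (0.10) and with the GC trend removed (0.08). Over all 27 p53 pathway members, 22 reached 1 TPM, 20 of these were below 0 (90.9%, beside 63.3% of all genes) and 2 above, and their median log2 change was -0.39. After rescaling, 14 of the 22 were below 0 (51.6% of all genes were), with a median of -0.24. Once the GC trend was removed, 17 were below 0 (50.6% of all genes were), with a median of -0.20.

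**Figure D2:**
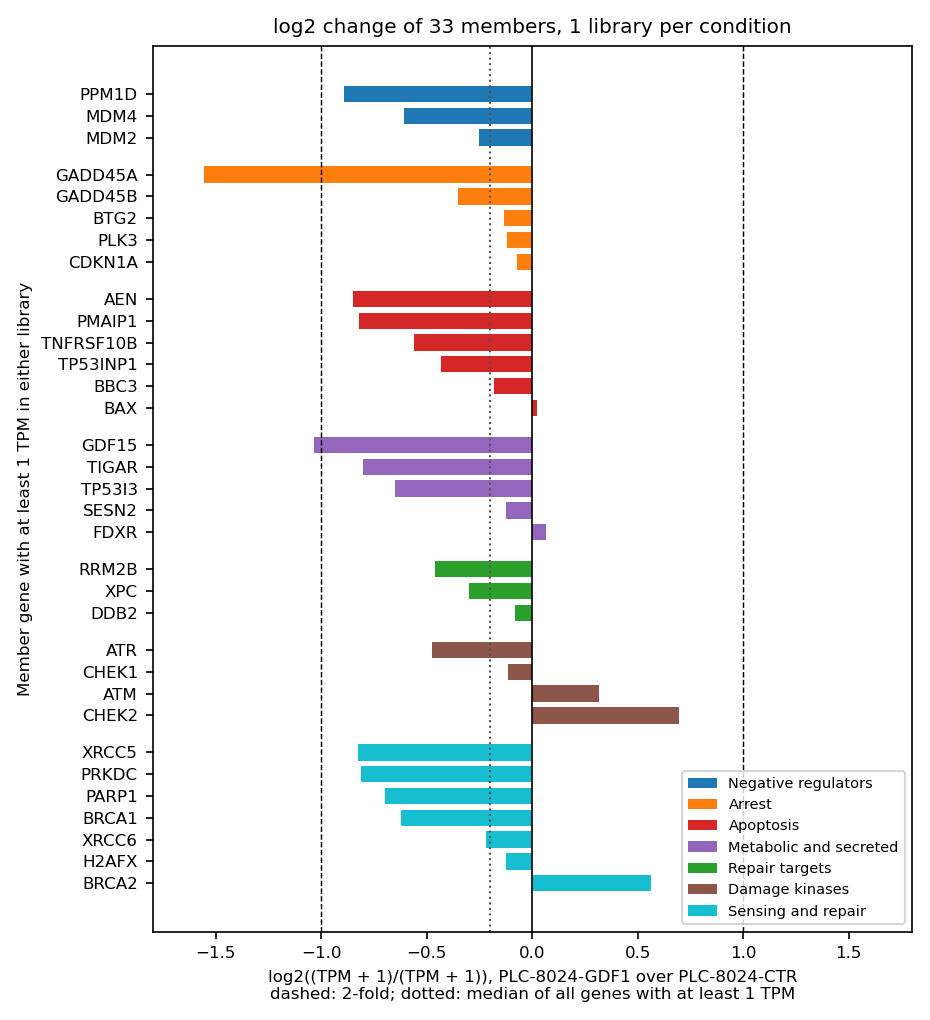
log2((TPM + 1)/(TPM + 1)), PLC-8024-GDF1 over control, for the 33 members with at least 1 TPM in either library, coloured by role, with dashed lines at 2-fold and a dotted line at the median of all genes (-0.20). GADD45A (-1.56) and GDF15 (-1.03) reach past the left dashed line, and the longest bars to the right are those of CHEK2 (0.69), BRCA2 (0.56) and ATM (0.32).

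Among the damage kinases, ATM and CHEK2 were higher in PLC-8024-GDF1, while ATR and CHEK1 had log2 changes below 0, all within 2-fold. CHEK1 lay above the median of all genes (-0.20) and turned positive after rescaling. ATM, which responds to double-strand breaks, stood at 1.13 and 1.65 TPM (log2 change 0.32). CHEK2, the effector kinase that ATM activates, stood at 22.2 and 36.5 TPM (0.69), and 9.21% of all genes had a log2 change at least as high. ATR, which responds to single-stranded DNA at stalled forks, stood at 3.33 and 2.11 TPM (-0.48), and CHEK1, its effector kinase, at 17.1 and 15.7 TPM (-0.12). The ATM and CHEK2 values stayed above 0 under every alternative run. With the GC trend removed, ATR was close to 0, at -0.06, and CHEK1 was at 0.26, so neither was clearly lower, and CHEK1 was at 0.08 after rescaling. CHEK2 shares 6.52% of its exon bases with HSCB on the opposite strand. HSCB stood at 26.96 and 28.6 TPM, and added up with it the log2 change of CHEK2 was 0.40. The pseudogenes of CHEK2 stood at no more than 0.138 TPM.

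The break sensing and repair members were mostly lower, and none passed 2-fold. The 3 subunits of DNA-dependent protein kinase, which opens non-homologous end joining at broken ends, were not lower to the same extent. XRCC5, which encodes Ku80, stood at 144 and 81.0 TPM (-0.82), and PRKDC, the catalytic subunit, at 13.4 and 7.21 TPM (-0.81). XRCC6, which encodes Ku70, the obligate partner of Ku80, stood at 296 and 254 TPM (-0.22). In the control the Ku70 transcript was thus listed at 2.05 times the level of Ku80, and in PLC-8024-GDF1 at 3.13 times. PARP1, which marks strand breaks with poly(ADP-ribose), stood at 34.2 and 20.7 TPM (-0.70), and H2AFX, the histone variant phosphorylated around breaks, at 170 and 155 TPM (-0.13, and 0.08 after rescaling). After rescaling, 5 of these 7 genes were below 0 (51.6% of all genes were), and XRCC6 was close to 0, at -0.01. With the GC trend removed, XRCC5, PRKDC and PARP1 stood at -0.51, -0.52 and -0.49, none of them lower by 1.5-fold. XRCC6 then stood at -0.04.

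The genes for the 2 BRCA proteins of homologous recombination differed in direction, though BRCA2 reached 1 TPM only in PLC-8024-GDF1, where it was higher. BRCA1, a ubiquitin ligase that promotes end resection, stood at 3.96 and 2.22 TPM (-0.62). BRCA2, a mediator of strand exchange, was low in both libraries, at 0.383 TPM in the control and 1.04 TPM in PLC-8024-GDF1 (0.56). With a pseudocount of 0.1 TPM the log2 change of BRCA2 was 1.24, past 2-fold, so at these levels its call turned on the pseudocount. BRCA1 shares 0.847% of its exon bases with the non-coding gene AC060780.1 on the same strand, which stood at 246 and 127 TPM, and the log2 change of their sum was -0.94. That sum mostly shows AC060780.1, which alone had -0.95. Of the 11 damage kinases and repair members, 8 were below 0 (72.7%, beside 63.3% of all genes) and 3 above, with a median log2 change of -0.22, near the -0.20 of all genes. After rescaling, 6 of the 11 were below 0 (51.6% of all genes were) and the median was -0.01.

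Further genes of the same pathways were counted from lists of known p53 targets, checkpoint and repair genes. As among the members, genes that reached 1 TPM in 1 library alone, such as LIF, NEIL3 and TDG below, were counted through the library where they were higher. Of 20 genes of p53 and its regulators, 16 reached 1 TPM, none rose or fell, and the median log2 change was -0.35, beside -0.20 of all genes. That median was -0.16 after rescaling and -0.14 with the GC trend removed, where all genes had -0.02 and -0.01. Of 77 further p53 targets, 62 reached 1 TPM, 2 rose, 2 fell and the median was -0.42. This median was -0.22 after rescaling, -0.18 with the GC trend removed and -0.30 over the 44 genes with at least 5 TPM. ORAI3, a calcium channel subunit, rose from 14.6 to 53.6 TPM (1.805), and TNFRSF10C, a decoy receptor for TRAIL, from 9.55 to 21.6 TPM (1.10). BTG1, an antiproliferative paralogue of BTG2, fell from 26.6 to 9.70 TPM (-1.37), and LIF, a cytokine, from 3.25 to 0.810 TPM (-1.23). The share that fell was 3.23%, below the 9.61% of all genes, and 4.82% of all genes rose. ORAI3 shares 52.9% of its exon bases with a non-coding gene on the same strand, and added up with it the log2 change was 1.55.

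Over the 7 checkpoint and repair lists together, 97 of 99 genes reached 1 TPM, and their median log2 change was -0.33. Of these, 3 rose, where 4.82% of all genes did, and 7 fell (7.22%, beside 9.61% of all genes). Among 20 checkpoint genes, CDC25B, a phosphatase that drives entry into mitosis, rose from 18.7 to 47.1 TPM (1.29). RPA1, which coats single-stranded DNA and recruits ATR, fell from 17.5 to 5.11 TPM (-1.60), and HUS1, a subunit of the 9-1-1 clamp, from 8.80 to 3.80 TPM (-1.03, and -0.86 after rescaling). In homologous recombination, 1 of 14 genes fell (7.14%, beside 9.61% of all genes), the helicase BLM, from 13.6 to 3.12 TPM (-1.83). The medians of these lists were both -0.36, but that of checkpoint signalling was -0.01 with the GC trend removed, and that of homologous recombination was -0.72 over its 8 genes with at least 5 TPM. None of 12 Fanconi anaemia genes and none of 8 mismatch repair genes passed 2-fold, and their medians were -0.24 and -0.54, though FANCC rose after rescaling (0.90 before and 1.08 after).

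The end joining list, of 8 genes beside the members, had 5 below 0 (62.5%, beside 63.3% of all genes) and a median of -0.65. LIG4, NHEJ1 and POLQ, all below 0, reached 1 TPM in the control alone and were thus counted through the library where they were higher. The median of the list was -0.22 with the GC trend removed. NHEJ1, the ligation factor XLF, fell from 7.92 to 0.801 TPM (-2.31), and added up with an overlapping gene on the same strand its log2 change was -1.21. In base excision repair, 1 of 18 genes rose and 3 fell (16.7%), where 4.82% of all genes rose and 9.61% fell. TDG, a thymine DNA glycosylase, rose from 0.571 to 4.596 TPM (1.83), while APEX1, the main abasic site nuclease, fell from 21.4 to 7.43 TPM (-1.41). NEIL2 and NEIL3, both DNA glycosylases, fell from 4.22 to 1.37 TPM (-1.14) and from 2.18 to 0.521 TPM (-1.06, and -0.99 after rescaling). Of 17 nucleotide excision repair genes, ERCC5, the 3′ incision nuclease XPG, rose from 11.3 to 30.3 TPM (1.35). The read-through gene BIVM-ERCC5, which shares exons with it, stood at 11.3 and 1.20 TPM, and the log2 change of their sum was 0.46, within 2-fold. GTF2H4, a subunit of the repair factor TFIIH, stood at 37.9 and 67.3 TPM (0.81, and 1.01 after rescaling). The median of this list was -0.16, and 0.04 after rescaling.

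Cycling cell markers, which many repair genes follow in dividing cells, were also mostly lower. Of 20, AURKA, a mitotic kinase, rose from 23.7 to 48.4 TPM (1.00) and 6 fell (30%, beside 9.61% of all genes). RRM2, the replicative small subunit of ribonucleotide reductase, for which the member RRM2B is an alternative, fell from 13.5 to 3.43 TPM (-1.71). CCNA2, which encodes cyclin A2, fell from 13.3 to 5.005 TPM (-1.25, or -0.87 added up with EXOSC9 on the opposite strand). TYMS, thymidylate synthase, fell from 69.5 to 28.8 TPM (-1.24). It shares 39.9% of its exon bases with ENOSF1 on the opposite strand, and added up with ENOSF1 its log2 change was -1.03. MCM4, a subunit of the replicative helicase, fell from 25.1 to 10.96 TPM (-1.13). MCM2 and BUB1 also fell (-1.09 each). After rescaling, MCM4, MCM2 and BUB1 lay within 2-fold (MCM2 at -0.90), while TYMS stood at -1.04. MKI67, the proliferation antigen Ki-67, stood at 6.07 and 6.64 TPM (0.11). The median of the list was -0.45, and 16 of the 20 genes were below 0 (80%, beside 63.3% of all genes). The part of cell cycling in the values of the members was not tested.

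The log2 change of all genes moved with the GC content of their transcripts. The median log2 change was -0.45 for the 2928 genes of lowest GC content and 0.11 for the 2928 of highest GC content, each 1 of 5 equal groups, and Spearman's rho over 14640 genes of these 2 libraries was 0.29. The members had a median GC content of 49.7%, from 35.1% in RRM2B to 69.7% in BBC3, close to the 49.6% of all genes. Across the 33 members rho was 0.15. The 9 members in the highest GC group had a median of -0.13, where all genes had 0.11, and the 8 in the lowest had -0.45, equal to that of all genes. In the group next to the lowest, which held BRCA1, CHEK1, MDM4, PPM1D, PRKDC and XRCC5, the members had -0.72 and all genes -0.33.

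With the GC trend removed, 24 of the 33 members (72.7%) and 50.6% of all genes were below 0. The median log2 change of the members was then -0.15 and that of all genes -0.01. Lower by at least 1.5-fold were then 4 members, AEN, GADD45A, GDF15 and TP53I3, in place of 12, which was 12.1% of the members beside 15.3% of all genes, so the larger share of members seen before was not kept. GADD45A stood at -1.37 and GDF15 at -1.17, so both stayed past 2-fold. CHEK2, ATM and BRCA2, which lay above the trend, stood at 0.89, 0.74 and 0.999, all short of 2-fold.

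**Figure D3:**
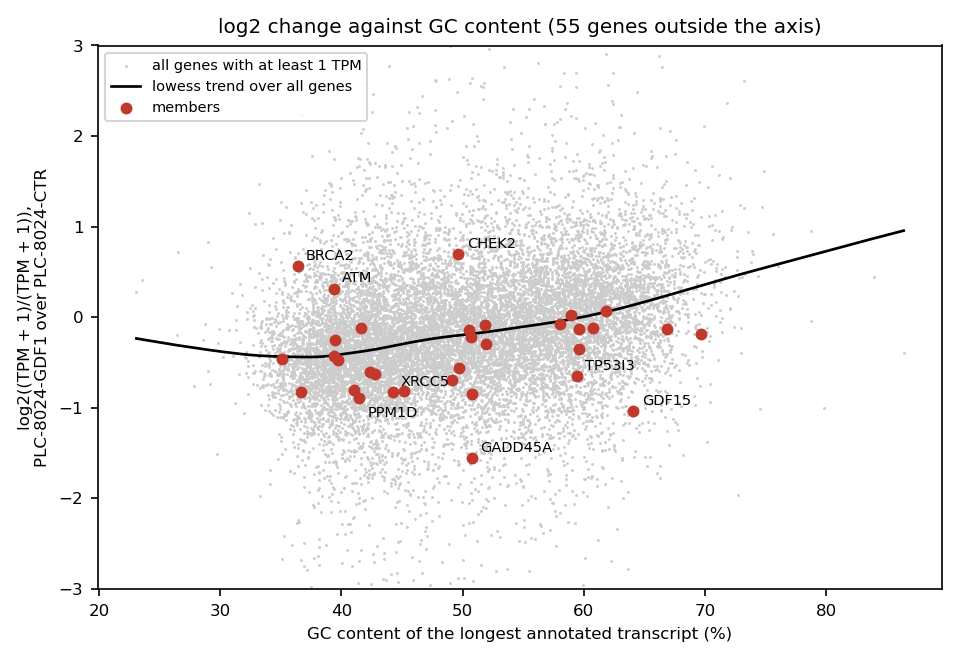
log2((TPM + 1)/(TPM + 1)), PLC-8024-GDF1 over control, against the GC content of the longest annotated transcript, for all genes with at least 1 TPM (grey) and the members (red), with a lowess trend over all genes (black line); 55 genes lie outside the vertical axis. The trend climbs with GC content, GADD45A and GDF15 lie far below it, and CHEK2, ATM and BRCA2 lie above it.

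Some members share exon bases with another gene, and whether strand was used in counting is not given in the sources used here. MDM2, CHEK1, PLK3, TNFRSF10B, TP53I3 and TP53INP1 overlap a second gene over at most 7.52% of their exon bases. Added up with that gene, their log2 changes were -0.52 for MDM2, -0.29 for CHEK1, -0.06 for PLK3, -0.54 for TNFRSF10B, -0.42 for TP53I3 and -0.63 for TP53INP1. None changed sign. The gene overlapping CHEK1 stood at 56.6 and 44.4 TPM, and that overlapping TP53INP1 at 12.1 and 7.54 TPM. Where the second gene was the more abundant, as in these, the sum mostly shows that gene and cannot tell the sign of the member. No gene with at least 1 TPM was found to share exon bases with GADD45A or GDF15, and genes under 1 TPM were not searched.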

How the data were processed

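RNA was sequenced on an Illumina HiSeq platform from 1 library of control and 1 library of GDF1-overexpressing PLC-8024 cells. The submitters' processing notes name FastQC 0.11.2, Trimmomatic 0.36, HISAT2 2.1.0, StringTie 1.3.3b and bedtools 2.26.0, with the genome build hg19. The authors deposited 1 TPM value per gene and library for 58174 Ensembl gene identifiers, while the methods name a RefSeq annotation. TPM carries no read counts, so no count model was used, and with 1 library per condition no test was made.

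Both TPM tables were joined on the gene identifier, and the 38 members were found by symbol. The log2 change used a pseudocount of 1 TPM, and genes that reached 1 TPM in 1 library or both were counted against a limit of 2-fold. Alternatives were a pseudocount of 0.1 TPM, a plain ratio, minimums of 5 TPM and none, TPM rescaled to a median ratio of 0 among genes with at least 5 TPM, and a lowess trend on GC content (span 0.3) subtracted. GC content and exon overlaps came from GENCODE v44 on GRCh37, which held 55726 of the identifiers. Promoters came from RefSeq on GRCh38.p14 and were used for sequence only. GADD45A, PRKDC, RRM2B, TNFRSF10B, TP53INP1 and XRCC5 had no matched promoter.

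The members and lists were chosen with earlier results of these data known. All members are named, with GDF1 and CERS1, and from each further list the genes past 2-fold with at least 5 TPM, at most 4 in each direction. LIF, TDG, NEIL2, NEIL3, LIG4, POLQ, GTF2H4, MCM2, BUB1, MKI67, FANCC and the markers named fall outside that rule and were chosen after their values were seen. Some single-gene values covered by the rule are not reported here. The calculations used pandas 2.3.3 and numpy 2.4.6 in Python 3.11.15, with statsmodels 0.14.6 for lowess, scipy 1.17.1 for correlations and matplotlib 3.10.9 for plots. Only the count of genes past 2-fold was tested on simulated data, with planted changes larger than 2-fold in well expressed genes.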

Additional observations from a re-analysis of the deposited data

How the results depend on the processing

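With a pseudocount of 0.1 TPM or with the plain ratio, 1 member rose (BRCA2, 3.03%), where 7.82% and 7.88% of all genes rose. In both settings 4 members fell (GADD45A, GDF15, PPM1D and TIGAR, 12.1%), where 15.5% and 16.1% of all genes fell. With rescaled TPM, 1 member fell (GADD45A, 3.03%, beside 6.85% of all genes), and GDF15 stood at -0.827. The median log2 change of the members was -0.147 with rescaled TPM and -0.149 with the GC trend removed. It was -0.254 over the 23 members with at least 5 TPM and -0.276 over all 38. The medians of the 10 further lists ran from -0.65 to 0.03, from -0.53 to 0.23 with rescaled TPM and from -0.22 to 0.15 with the GC trend removed, and that of nucleotide excision repair turned from -0.16 to 0.04 and 0.12. The counts below 0 and lower by 1.5-fold, and the sums with overlapping genes, were added after seeing the data. With the GC trend removed, 4 members were lower by 1.5-fold in place of 12 (12.1%, beside 15.3% of all genes), and with rescaled TPM 8 were (24.2%, beside 17.7%). Of the 33 members, 8 changed sign within 2-fold after rescaling (BBC3, BTG2, CDKN1A, CHEK1, DDB2, H2AFX, PLK3 and SESN2) and 4 with the GC trend removed (BTG2, CHEK1, DDB2 and MDM2), and none changed sign with the other pseudocounts. No paired analysis was possible because there was 1 library per condition, and for the same reason no library could be left out. Depth is unknown from these tables, so members near 1 TPM, such as BRCA2, ATM and MDM4, carry an error that cannot be given.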

Other observations

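The receptors for TRAIL, a ligand that triggers apoptosis, did not all lie on one side of 0. The genes in this section were chosen after their values were seen. The death receptor genes TNFRSF10A and TNFRSF10B had log2 changes of -0.80 (6.71 and 3.43 TPM) and -0.56 (32.5 and 21.7 TPM). Of the decoy receptor genes, TNFRSF10D had -0.84 (8.20 and 4.13 TPM), while TNFRSF10C rose (1.10, 9.55 to 21.6 TPM). The ligand gene TNFSF10 stood at 17.8 and 16.6 TPM (-0.09). TNFRSF10A, TNFRSF10B and TNFRSF10D remained below 0 and TNFRSF10C past 2-fold after rescaling, at -0.64, -0.36, -0.67 and 1.29, and TNFSF10 turned to 0.10.

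GDF15 and SESN2 are also targets of ATF4, the transcription factor of the integrated stress response, whose gene stood at 822 and 605 TPM (-0.44). Other ATF4 targets took unequal values. TRIB3, a pseudokinase, fell from 121 to 57.6 TPM (-1.06, and -0.86 after rescaling), and PSAT1, an enzyme of serine synthesis, fell from 114 to 53.1 TPM (-1.09, and -0.89 after rescaling). ASNS, asparagine synthetase, stood at 231 and 127 TPM (-0.86) and CHAC1, which degrades glutathione, at 174 and 125 TPM (-0.47). DDIT3, which encodes CHOP, stood at 75.9 and 77.4 TPM (0.03). Their relation to the p53 targets was not tested.

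All 3 ribonucleotide reductase subunit genes were lower in PLC-8024-GDF1, and 63.3% of all genes were below 0. RRM1 stood at 24.1 and 15.5 TPM (-0.60), RRM2 at 13.5 and 3.43 TPM (-1.71) and RRM2B at 2.55 and 1.58 TPM (-0.46). With the GC trend removed, RRM2B was near 0, at -0.03.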
